A study of Mus musculus with 20 samples.

Results

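Perfluorooctanoic acid (PFOA), a perfluorinated carboxylic acid used as a surfactant, was given in drinking water to male mice that expressed a human PPARα transgene (hPPARa), and their livers were compared with those of hPPARa males on vehicle water. The comparison used the libraries whose titles begin with M_hPPARa_PFOA (3) and M_hPPARa_Vh (2), which are 5 of the 20 liver libraries of the series. The 5 hPPARa female libraries (2 PFOA, 3 vehicle) helped to estimate the spread and gave the test of a difference between the sexes, and the 6 male libraries of PPARα knockout mice (KO; 3 PFOA, 3 vehicle) gave the test of a difference between the genotypes. PFOA was supplied at 8 µM, reading the design text's unit as micromolar, in purified water that carried 0.5% sucrose, and vehicle was the same sucrose water. Drinking began at weaning and lasted 6 to 7 weeks, and every group ate one custom diet in which carbohydrate gave 51.8%, fat 33.5% and protein 14.7% of the energy. The promoter that drives the transgene, the cells in which it is active, the state of the mouse Ppara alleles in hPPARa mice and the animals' age were not stated in the labels or the design text.

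PPARα is a nuclear receptor that is activated by fatty acids, pairs with the receptor RXR and binds direct repeats of a hexamer near genes of fatty acid uptake, oxidation and storage. In rodent liver its ligands are known for raising the Cyp4a ω-hydroxylases and the enzymes of peroxisomal β-oxidation. A pair of other nuclear receptors, CAR and PXR, respond to foreign compounds and raise drug-metabolising enzymes, of which Cyp2b10 is the usual marker gene for CAR in mouse and Cyp3a11 for PXR.

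Each male library held between 15036240 and 16534285 counts. The hPPARa male libraries had 42.9 to 61.6 CPM (a count scaled by library total and composition factor) of the Y-linked gene Eif2s3y and at most 4.40 CPM of Xist, whereas the hPPARa female libraries had at most 0.415 CPM of Eif2s3y and at least 456 CPM of Xist. One KO male library, PFOA replicate 2, had 30.8 CPM of Xist, so the count of genes that differed between genotypes is given below with and without it. Mouse Ppara had 21.0, 31.9 and 39.0 CPM in the hPPARa PFOA males, against 26.6 and 22.6 CPM in the hPPARa vehicle males, with 18.3 to 25.1 CPM in the KO males, so this gene count did not separate the genotypes and checked no label. Among the PFOA males, replicate 1 stood apart: the chi-square per gene was 32.0 and 41.8 between it and replicates 2 and 3, against 13.3 between replicates 2 and 3 and 27.0 between the vehicle libraries, where counting noise alone gives about 1. Mitochondrially encoded transcripts took 12.9%, 9.64% and 9.07% of its counts and those of the other PFOA males, against 9.19% and 11.8% in the vehicle males. All 20 hepatocyte markers had counts in the male libraries. Nothing in the labels ties each library to its own mouse, so the p-values measure only how far these libraries spread, a part of which may be technical. In bulk liver, fewer cells of a type and less RNA per cell cannot be told apart.

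PFOA males differed from vehicle males at 1181 of 14400 genes tested (8.2% of them), of which 763 were higher (5.3%) and 418 lower (2.9%), at an adjusted p under 0.05 by edgeR's quasi-likelihood test. Genes of fatty acid and drug metabolism were among the largest rises, and at least 10-fold changes were found at 80 higher and 8 lower genes, at least 2-fold changes at 460 higher and 169 lower genes. All 1181 had PFOA and vehicle values that did not overlap, as did 20% of all tested genes with PFOA above and 18.7% with PFOA below. Both vehicle libraries were needed for many calls: 468 genes passed without vehicle replicate 1 and 485 without replicate 2, of which 444 and 454 were among the 1181. Where a called gene below did not pass under all 16 alternative settings, the settings or the number that it held in stand beside it, and several were chosen for naming after their values were seen. The gene lists follow textbook groupings, but the lists and their members were chosen with earlier results of these data known. Each is read against the shares of all genes given here, as a description and not as independent support.

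**Figure D1:**
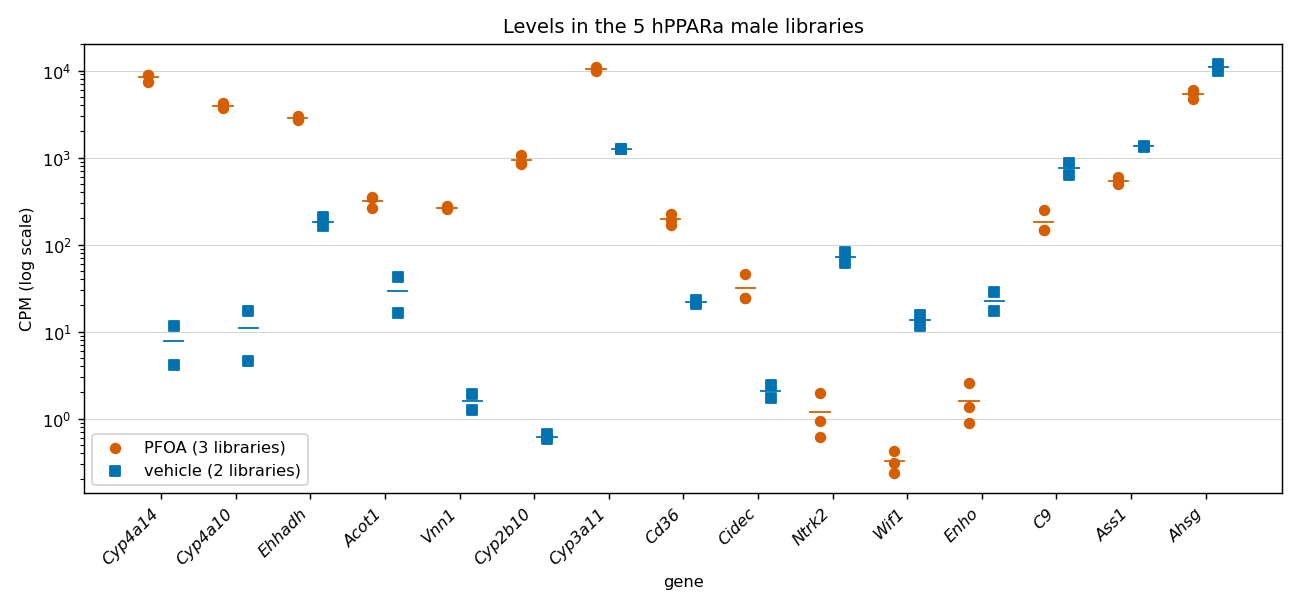
CPM (log axis) of 15 genes in each hPPARa male library, with PFOA libraries as circles on the left and vehicle libraries as squares on the right, and a line at each group's mean. The groups do not overlap at any of these genes, with PFOA above vehicle for Cyp4a14 to Cidec and below it for Ntrk2 to Ahsg.

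The ω-oxidation genes included some of the largest rises. Cyp4a14, a fatty acid ω-hydroxylase, had 8905, 7439 and 8865 CPM in PFOA livers, against 11.5 and 4.13 CPM in vehicle livers. Both vehicle livers were low, with replicate 1 the higher, and every PFOA liver was far above them. The log2 fold change was 10.06 ± 0.55 (SE; adjusted p = 7.49e-06), and it was 10.99 without vehicle replicate 1. Cyp4a10, its close relative, had 3874, 3698 and 4256 CPM in PFOA livers, against 17.4 and 4.60 CPM in vehicle livers (8.48 ± 0.66, adjusted p = 0.000193; 7.83 to 9.74 over the alternatives, with both ends from leaving out a vehicle library). Every PFOA value of these genes lay far above every vehicle value. Cyp4a31 rose by 7.93 ± 0.47, Cyp4a32 by 4.83 ± 0.64 (5.91 and 4.23 without vehicle replicates 1 and 2) and Cyp4a12b by 4.50 ± 0.69, on the log2 scale, the last of these with adjusted p over 0.05 with either vehicle library left out. Aldh3a2, the fatty aldehyde dehydrogenase that completes the conversion to dicarboxylic acids, had 1235, 1369 and 1466 CPM in PFOA livers, against 163 and 130.2 CPM in vehicle livers (3.21 ± 0.18, adjusted p = 3.83e-07). The groups were tight and well apart. In all, 6 of the 15 tested ω-oxidation genes rose and 1 fell, the leukotriene ω-hydroxylase Cyp4f14, with 72.4, 149 and 139 CPM in PFOA livers, against 334 and 338 CPM in vehicle livers (−1.49 ± 0.26, adjusted p = 0.00581). The median log2 fold change of the list was 0.62, beside 0.0037 over all genes tested, and Cyp4a12a at 0.71 ± 0.45 (adjusted p = 0.422) was among those that did not pass. Its male groups did not overlap, and Cyp4a12a did pass with only the 5 male libraries (adjusted p = 0.0244). The Cyp4a genes are near-identical in part, so reads could have been divided among them or lost in the authors' counting.

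Peroxisomal β-oxidation, which shortens very long and dicarboxylic acyl chains, rose at its bifunctional enzyme and a thiolase, among others. Ehhadh, the bifunctional hydratase and dehydrogenase, had 2704, 2799.6 and 2970.2 CPM in PFOA livers, against 205 and 162 CPM in vehicle livers (3.94 ± 0.20, adjusted p = 2.56e-07). The thiolase Acaa1b had 1684, 1775 and 2019 CPM in PFOA livers, against 269 and 176 CPM in vehicle livers (3.04 ± 0.20, adjusted p = 1.7e-06). Neither gene's groups came near each other. Decr2, the peroxisomal dienoyl-CoA reductase, rose by 2.13 ± 0.19, and Abcd3, a transporter of the peroxisomal membrane, by 1.23 ± 0.16. Crat, which moves acetyl groups out of the organelle as carnitine esters, had 178, 168 and 153 CPM in PFOA livers, against 45.2 and 21.0 CPM in vehicle livers (2.33 ± 0.32, 2.99 without vehicle replicate 1). Of the 24 tested genes 12 rose and 1 fell, the trans-2-enoyl-CoA reductase Pecr (−0.44 ± 0.12, adjusted p = 0.0376, a call that held in 7 of 16 alternatives), and the median was 0.86. Catalase (Cat), the peroxisomal marker enzyme, had 3245, 3637 and 3402 CPM in PFOA livers, against 3636 and 3758 CPM in vehicle livers, values that overlapped (−0.11 ± 0.13, adjusted p = 0.688).

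Of 23 tested genes of peroxisome formation and of the peroxisomal membrane 3 rose and 0 fell, with a median of 0.082, and 6 rose without PFOA replicate 1 or with total counts as the scale, and 5 with DESeq2. Pex11a, a membrane protein that promotes peroxisome division, had 229, 235 and 217 CPM in PFOA livers, against 60.5 and 60.9 CPM in vehicle livers (1.90 ± 0.15, adjusted p = 6.96e-06), with PFOA livers within a narrow band above the vehicle livers. Pxmp4, a membrane protein, rose by 0.93 ± 0.16. Pex19, the import receptor for membrane proteins, rose by 0.54 ± 0.12, with adjusted p over 0.05 with either vehicle library left out.

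The acyl-CoA thioesterases, which release free fatty acids from coenzyme A, rose at 7 of 11 tested genes, with a median of 1.20. Acot1, the cytosolic long-chain enzyme, had 354, 261 and 341 CPM in PFOA livers, against 42.9 and 16.2 CPM in vehicle livers (3.43 ± 0.40, adjusted p = 0.00109, 4.30 without vehicle replicate 1). The mitochondrial Acot2 had 111, 59.2 and 91.0 CPM in PFOA livers, against 7.56 and 4.40 CPM in vehicle livers (3.86 ± 0.33, adjusted p = 8.97e-05). For both genes the lowest PFOA liver was several times as high as the highest vehicle liver. The peroxisomal enzymes Acot6 and Acot8 rose by 2.02 ± 0.30 and 0.98 ± 0.14. The count was 4 without vehicle replicate 2.

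Mitochondrial fatty acid oxidation and ketogenesis rose at most tested members. Of 28 tested genes 18 rose and 0 fell, with a median of 0.91, and the count was 11 without vehicle replicate 2. Eci1, an enoyl-CoA isomerase, had 303, 264 and 337 CPM in PFOA livers, against 92.5 and 73.7 CPM in vehicle livers (1.86 ± 0.19, adjusted p = 7.16e-05). Acadl, the long-chain acyl-CoA dehydrogenase, had 459, 393 and 447 CPM in PFOA livers, against 179.8 and 171 CPM in vehicle livers (1.30 ± 0.14, adjusted p = 9.05e-05). The livers of each group were close together and the groups far apart. The medium-chain dehydrogenase Acadm rose by 1.11 ± 0.17, the carnitine carrier Slc25a20 by 1.20 ± 0.13, the carnitine importer Slc22a5 by 1.72 ± 0.16 and the trifunctional enzyme subunit Hadhb by 1.22 ± 0.18. Pdk4, the kinase that turns off pyruvate dehydrogenase, had 50.6, 13.8 and 29.1 CPM in PFOA livers, against 3.84 and 3.40 CPM in vehicle livers (3.10 ± 0.55, adjusted p = 0.0132), and its PFOA livers were unequal. That call was lost with only the 5 male libraries, with the replicate block and with either vehicle library left out (highest adjusted p 0.116). Cpt1a, the entry step of long-chain fatty acids into mitochondria, had 358, 579 and 606 CPM in PFOA livers, against 471 and 307 CPM in vehicle livers, and these values overlapped (0.40 ± 0.22, adjusted p = 0.327). The nuclear genes of oxidative phosphorylation showed 0 of 25 past the threshold with a median of 0.021, and 0 of 7 tested mitochondrially encoded genes passed, with a median of −0.020, beside 8.2% of all genes. Another 5 mitochondrially encoded genes, mt-Nd3, mt-Nd4l, mt-Co2, mt-Atp6 and mt-Atp8, had no count in any male library. Neither this list nor the mitochondrial shares of counts cover them.

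**Figure D2:**
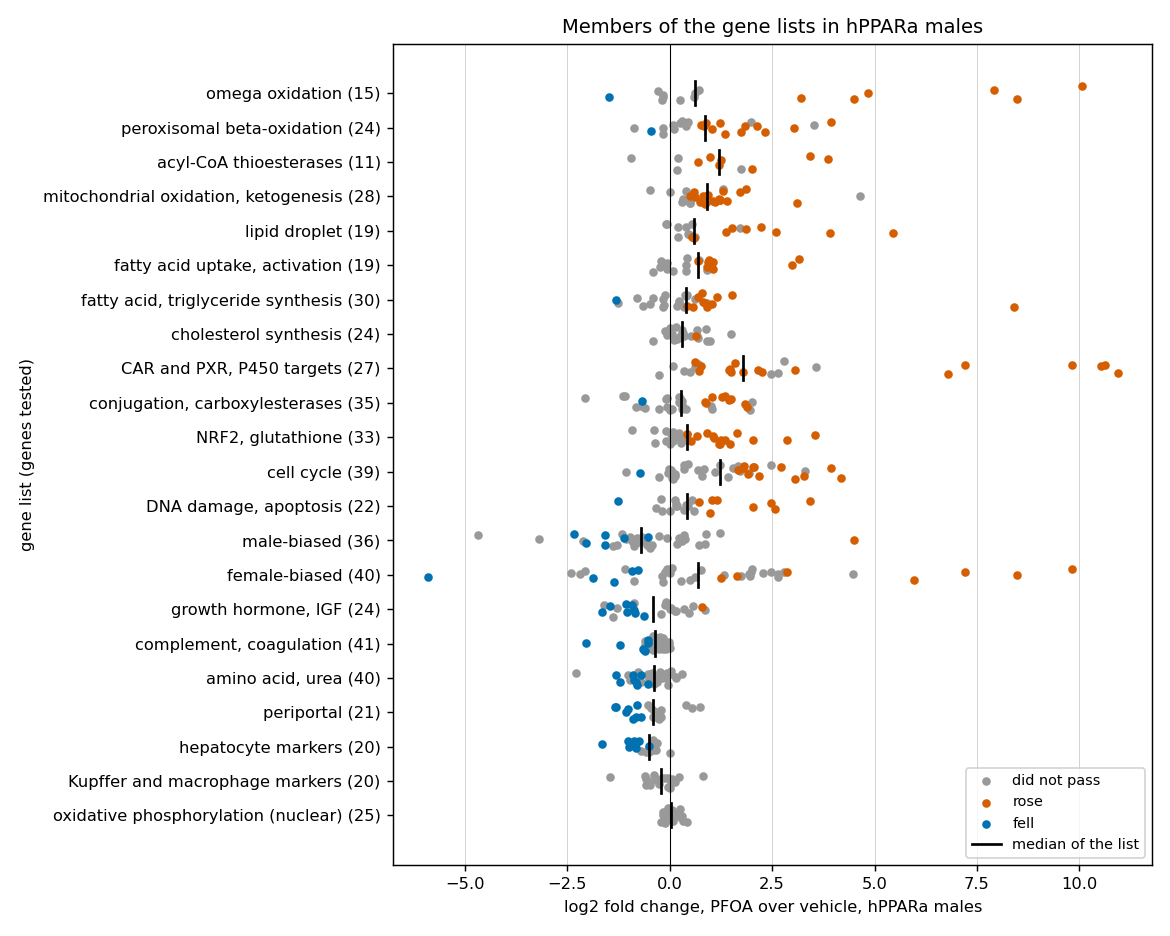
Log2 fold change of PFOA over vehicle in hPPARa males for every tested member of 22 gene lists, coloured by whether the gene rose, fell or did not pass the adjusted p threshold of 0.05, with a black line at each list's median. Rising genes are 18 of 28 in the mitochondrial oxidation list and 17 of 27 in the CAR and PXR list, falling genes are 8 of 20 among hepatocyte markers and 8 of 21 in the periportal list, and the 25 oxidative phosphorylation genes lie near 0. Genes with no vehicle count (Cyp2c65 and Cyp2c66 among them) are drawn at their fitted value, which is no bound.

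Cd36, a fatty acid translocase of the cell surface, had 193, 167 and 222 CPM in PFOA livers, against 22.9 and 20.6 CPM in vehicle livers (3.16 ± 0.19, adjusted p = 9.1e-07). The vehicle livers were nearly equal and far below every PFOA liver. Lpl, lipoprotein lipase, had 69.2, 44.2 and 38.2 CPM in PFOA livers, against 7.24 and 5.46 CPM in vehicle livers (2.99 ± 0.37, adjusted p = 0.0014). Of 19 tested uptake and activation genes 8 rose and 0 fell, with a median of 0.69, and the count was 4 without vehicle replicate 1 and 3 without replicate 2. The long-chain acyl-CoA synthetase Acsl5 rose by 0.90 ± 0.15. Fabp1, the abundant fatty acid binding protein of liver, had 10195, 9111 and 8776 CPM in PFOA livers, against 4199 and 4794 CPM in vehicle livers (1.06 ± 0.26, adjusted p = 0.0291), a call lost with the replicate block and without any 1 of the 5 male libraries.

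Of 19 tested lipid droplet genes 9 rose and 0 fell, with a median of 0.58. Cidec, which fuses droplets into larger ones, had 46.2, 24.0 and 24.3 CPM in PFOA livers, against 2.43 and 1.73 CPM in vehicle livers (3.91 ± 0.39, adjusted p = 0.000186). Replicate 1 was the highest of the PFOA livers, and both vehicle livers had few counts. Plin2, the main coat protein of hepatocyte droplets, had 869, 740.4 and 592 CPM in PFOA livers, against 235 and 167 CPM in vehicle livers (1.87 ± 0.23, adjusted p = 0.000291). Fitm1, which partitions triglyceride into droplets, rose by 5.46 ± 0.43, and the droplet dehydrogenase Hsd17b11 rose by 2.22 ± 0.17. Pparg, the PPAR of adipocytes and of steatotic liver, had 18.7, 14.1 and 21.3 CPM in PFOA livers, against 2.95 and 3.0 CPM in vehicle livers (2.60 ± 0.27, adjusted p = 9.57e-05), with no overlap.

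Among 30 genes of fatty acid and triglyceride synthesis 11 rose and 1 fell, with a median of 0.39. The count that rose was 4 with either vehicle library left out, and 7 with only the 5 male libraries or with either female PFOA library left out. Mogat1, the monoacylglycerol acyltransferase, had 29.3, 22.4 and 22.9 CPM in PFOA livers, against 0.0641 and 0.0666 CPM in vehicle livers. It was nearly silent on vehicle, with 2 counts in both libraries together, and the ratio of the group totals was 381 (95% counting interval 105 to 3150). Malic enzyme Me1 rose by 1.52 ± 0.22, while fatty acid synthase Fasn, with 307, 269 and 279 CPM in PFOA livers, against 140.3 and 182 CPM in vehicle livers, changed by 0.82 ± 0.15 (adjusted p = 0.00367), which fell short without vehicle replicate 1. The stearoyl-CoA desaturase Scd1 rose by 1.15 ± 0.29 (adjusted p = 0.0341), a call that held in 10 of 16 alternatives. The member that fell was Pklr, liver pyruvate kinase, with 93.9, 117 and 149 CPM in PFOA livers, against 240.1 and 356 CPM in vehicle livers (−1.31 ± 0.23, adjusted p = 0.00383; lost without vehicle replicate 2). Of 24 cholesterol synthesis genes 1 rose (Sc5d, 0.63 ± 0.17, held in 8 of 16 alternatives) and 0 fell, and the median was 0.29. The count that rose was 0 with the replicate block and without either female PFOA library, female vehicle replicate 2, PFOA replicate 1 or 2 or either vehicle library. It was 2 with DESeq2 or without female vehicle replicate 1, 3 on total counts, 4 with no filter, and 5 with only the 5 male libraries or without female vehicle replicate 3.

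Sequence upstream of the lipid genes was read from RefSeq promoter windows (build GRCm38.p6, which is not the build of the authors' counts). The PPAR and RXR motif, a direct repeat with 1 base between its hexamers, was searched as AGGTCANAGGTCA on both strands in the 250 bases before each start, allowing 2 mismatches. Of the 74 genes that rose on the 8 lists from ω-oxidation to triglyceride synthesis, 59 had an entry and 7 of these (11.86%) held a match, namely Acot12, Elovl1, Fabp1, Acot4, Cd36, Mogat1 and Plin2 (the calls of Acot12, Elovl1 and Acot4 held in 13, 7 and 8 of 16 alternatives), beside 3.72% of all 27025 genes in the table. The windows of 4 of them are shown with the match in capitals, because they belong to the uptake and storage genes whose values are given above, and each is 5′ to 3′ on the gene's strand. They come from chr6:71199629-71199878 (plus strand) for Fabp1, chr1:78510810-78511059 (plus strand) for Mogat1, chr4:86670060-86670309 (minus strand) for Plin2 and chr5:17835897-17836146 (minus strand) for Cd36. The match begins 67 bases before the start in Fabp1 (1 mismatch), 51 in Mogat1, 225 in Plin2 and 63 in Cd36 (2 mismatches each).
Fabp1: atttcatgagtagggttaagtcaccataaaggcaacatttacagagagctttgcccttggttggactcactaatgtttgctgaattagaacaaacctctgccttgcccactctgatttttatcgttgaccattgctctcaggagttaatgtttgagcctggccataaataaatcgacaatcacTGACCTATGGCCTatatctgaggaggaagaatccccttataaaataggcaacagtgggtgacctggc
Mogat1: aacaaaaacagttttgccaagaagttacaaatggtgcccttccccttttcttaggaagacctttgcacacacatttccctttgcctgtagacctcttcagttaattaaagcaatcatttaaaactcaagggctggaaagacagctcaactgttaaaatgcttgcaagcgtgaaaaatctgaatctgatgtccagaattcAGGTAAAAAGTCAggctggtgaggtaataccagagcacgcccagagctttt
Plin2: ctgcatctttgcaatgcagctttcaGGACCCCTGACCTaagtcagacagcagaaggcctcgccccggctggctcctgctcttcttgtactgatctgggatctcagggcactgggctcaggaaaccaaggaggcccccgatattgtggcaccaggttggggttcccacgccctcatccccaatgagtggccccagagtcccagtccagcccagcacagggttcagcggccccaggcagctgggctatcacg
Cd36: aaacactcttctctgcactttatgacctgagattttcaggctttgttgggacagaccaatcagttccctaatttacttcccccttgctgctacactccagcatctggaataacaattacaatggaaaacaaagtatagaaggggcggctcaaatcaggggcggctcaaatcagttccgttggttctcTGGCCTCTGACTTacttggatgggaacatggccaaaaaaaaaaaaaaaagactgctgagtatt
A match of letters is a description of these windows and not a binding site. The share with a match among the genes tested here, or among listed genes that did not rise, was not computed.

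The drug-metabolising P450 genes that CAR and PXR are known to raise were higher in PFOA livers at 17 of 27 tested genes and lower at 0, with a median of 1.79 (1.69 with the members that had no vehicle count set at their bound). Cyp2b10 had 853, 1063 and 860.2 CPM in PFOA livers, against 0.576 and 0.666 CPM in vehicle livers. It was close to absent on vehicle and well expressed in every PFOA liver (10.52 ± 0.66, adjusted p = 4.55e-05). Cyp3a11, the main Cyp3a enzyme of mouse liver, had 10306, 9974 and 11063 CPM in PFOA livers, against 1254 and 1270 CPM in vehicle livers (3.05 ± 0.16, adjusted p = 3.51e-07), and the libraries of each group were nearly equal. Cyp2c29 had 6879.9, 7169.8 and 8193 CPM in PFOA livers, against 1699.6 and 2589 CPM in vehicle livers (1.79 ± 0.18, adjusted p = 7.21e-05) and Cyp2c55 had 199, 107 and 99.7 CPM in PFOA livers, against 0.961 and 1.47 CPM in vehicle livers (6.80 ± 0.42, adjusted p = 1.4e-05). No PFOA value came near a vehicle value. Cyp2c65 and Cyp2c66 had 0 counts in both vehicle libraries and 743 and 596 counts over the PFOA libraries, which makes them at least 152-fold and 122-fold higher, against a floor of 3 counts over the vehicle group. The CAR gene itself, Nr1i3, had 121, 142 and 190 CPM in PFOA livers, against 217 and 145 CPM in vehicle livers, which overlapped (−0.26 ± 0.22, adjusted p = 0.538). The PXR gene, Nr1i2, had a log2 fold change of 0.75 ± 0.13 (adjusted p = 0.00334), and did not pass without vehicle replicate 2.

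Cyp2b9 and Cyp2b13, which are known as female-predominant P450 genes in mouse liver, rose in the PFOA males. Cyp2b9 had 140.2, 179 and 179 CPM in PFOA livers, against 1.92 and 0.266 CPM in vehicle livers (7.22 ± 0.81, adjusted p = 0.00225; 6.44 to 9.24 over the alternatives, with both ends from leaving out a vehicle library). Cyp2b13 had 34.0, 34.6 and 40.1 CPM in PFOA livers, against 0 and 0.0666 CPM in vehicle livers, with 1 count over both vehicle libraries, and the ratio of group totals was 1110 (95% counting interval 199 to 43900). Vehicle replicate 1 was the higher of the vehicle livers for Cyp2b9, and both were far under any PFOA liver. The pair share 99.2% of the 250 RefSeq bases before their starts (GRCm38.p6, chr7:26173159-26173408 (plus strand) for Cyp2b9 and chr7:26061245-26061494 (plus strand) for Cyp2b13), with 2 differing positions, in capitals, so their promoters are shown together. Whether reads were divided between the pair was not tested, because these bases lie before the transcripts, whose likeness was not measured.
Cyp2b9: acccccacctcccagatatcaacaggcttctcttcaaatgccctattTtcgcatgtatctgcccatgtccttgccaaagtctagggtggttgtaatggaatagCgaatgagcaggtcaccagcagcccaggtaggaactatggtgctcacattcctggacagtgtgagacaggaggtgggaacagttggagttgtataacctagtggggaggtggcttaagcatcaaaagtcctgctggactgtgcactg
Cyp2b13: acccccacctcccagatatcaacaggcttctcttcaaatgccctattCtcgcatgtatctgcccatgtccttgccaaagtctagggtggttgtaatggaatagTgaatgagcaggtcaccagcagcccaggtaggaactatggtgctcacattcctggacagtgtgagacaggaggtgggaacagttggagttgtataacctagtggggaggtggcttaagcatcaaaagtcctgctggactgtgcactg

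**Figure D3:**
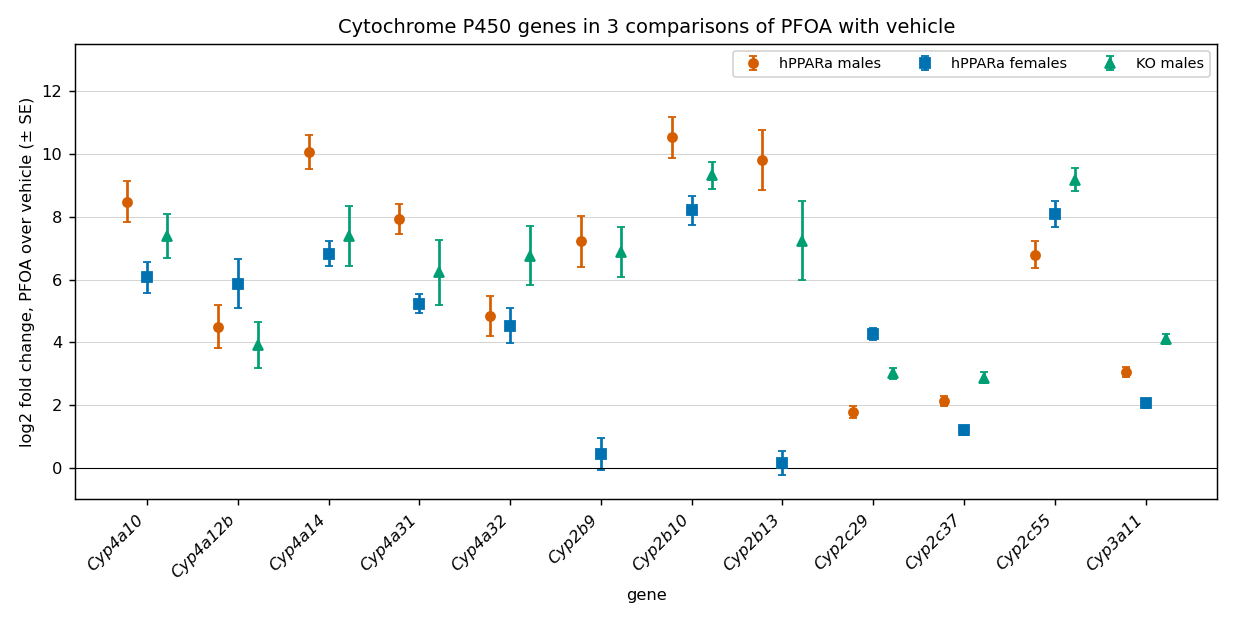
Log2 fold change of PFOA over vehicle with its SE for 12 P450 genes in hPPARa males (circles), hPPARa females (squares) and KO males (triangles). The Cyp4a genes, Cyp2b10, Cyp2c55 and Cyp3a11 lie above 0 in all 3 comparisons, while Cyp2b9 and Cyp2b13 stand at 0.44 and 0.16 in females. By the test of a difference between the sexes Cyp2b13 passed and Cyp2b9 did not (6.78 ± 0.96, adjusted p = 0.0898).

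Later steps of foreign compound handling rose in part. Of 35 conjugation and carboxylesterase genes 9 rose and 1 fell (the glucuronosyltransferase Ugt2a3, −0.68 ± 0.15, lost with either vehicle library left out), with a median of 0.29, and 4 rose without vehicle replicate 1. Ephx1, microsomal epoxide hydrolase, had 1061, 916 and 873 CPM in PFOA livers, against 362 and 334 CPM in vehicle livers (1.45 ± 0.15, adjusted p = 8.97e-05), and the carboxylesterase Ces2a had 539, 606 and 535 CPM in PFOA livers, against 224 and 174 CPM in vehicle livers (1.49 ± 0.18, adjusted p = 0.000164). The groups of both genes were separate. Of 33 NRF2 and glutathione genes 15 rose and 0 fell, with a median of 0.42, and 8 rose with either vehicle library left out. The transferase Gstm4 had 109, 109 and 101 CPM in PFOA livers, against 25.5 and 26.3 CPM in vehicle livers (2.04 ± 0.15, adjusted p = 3.67e-06). Gstm3 rose by 2.87 ± 0.42, Gclc, which makes the first step of glutathione, by 1.07 ± 0.17 and the quinone reductase Nqo1 by 1.48 ± 0.19. Heme oxygenase Hmox1, another NRF2 target, had 13.4, 16.1 and 13.1 CPM in PFOA livers, against 9.99 and 16.6 CPM in vehicle livers, which overlapped (0.092 ± 0.19, adjusted p = 0.836). The efflux pumps Abcc3 and Abcc4 rose by 4.23 ± 0.50 (4.86 without vehicle replicate 1) and 3.56 ± 0.28. Cyp1a1, the marker of the aryl hydrocarbon receptor, had 1.14, 1.54 and 1.54 CPM in PFOA livers, against 0.705 and 0.799 CPM in vehicle livers (0.90 ± 0.38, adjusted p = 0.185), and 1 of the 7 tested genes of that receptor rose, namely Nqo1.

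Several single genes outside these routes changed strongly. Vnn1, the pantetheinase that recycles the vitamin part of coenzyme A, had 278, 258 and 261 CPM in PFOA livers, against 1.92 and 1.27 CPM in vehicle livers (7.37 ± 0.59, adjusted p = 0.000215). PFOA values were nearly equal and the vehicle values close to nothing. Retsat, retinol saturase, had 1800.3, 1796 and 2249 CPM in PFOA livers, against 224 and 149.6 CPM in vehicle livers (3.38 ± 0.23, adjusted p = 1.87e-06). Krt23, a keratin, had 53.2, 54.7 and 79.1 CPM in PFOA livers, against 4.93 and 3.13 CPM in vehicle livers (3.95 ± 0.24, adjusted p = 1.7e-06). Of the 24 genes of coenzyme A recycling and secreted hepatic regulators, 7 rose and 1 fell (Ahsg), with a median of 0.19, and 4 rose without vehicle replicate 2. The hormone Fgf21 had 2.47, 0.983 and 9.27 CPM in PFOA livers, against 0.256 and 0.0666 CPM in vehicle livers, an uneven set that did not pass (4.64 ± 1.48, adjusted p = 0.112; 3.35 to 5.84 over the alternatives, with the ends without PFOA replicate 3 and without vehicle replicate 1), although it did with DESeq2 (adjusted p = 0.00578), with the replicate block (0.00341) and without PFOA replicate 2 (0.0452).

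The deepest fall was that of Ntrk2, the receptor for brain-derived neurotrophic factor. Ntrk2 had 1.98, 0.614 and 0.950 CPM in PFOA livers, against 61.7 and 81.2 CPM in vehicle livers (−5.90 ± 0.45, adjusted p = 0.000143, −6.49 without PFOA replicate 1). Wif1, a secreted inhibitor of Wnt proteins, had 0.421, 0.307 and 0.238 CPM in PFOA livers, against 11.5 and 15.3 CPM in vehicle livers (−5.35 ± 0.40, adjusted p = 1.26e-05). Enho, which encodes the peptide adropin, had 0.902, 1.35 and 2.55 CPM in PFOA livers, against 17.1 and 28.2 CPM in vehicle livers (−3.81 ± 0.44, adjusted p = 0.00115). In all of these every PFOA liver was far below both vehicle livers. Col4a3, a collagen chain of basement membranes, fell by 3.37 ± 0.43, the receptor Adgrv1 by 3.18 ± 0.37 and the ion channel Hcn3 by 2.71 ± 0.25, on the log2 scale.

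Of the 20 hepatocyte markers 8 fell and 0 rose, beside 2.9% and 5.3% of all genes, and the median was −0.51. In 19 of the 20 every PFOA value was below every vehicle value, beside 18.7% of all genes. The fetuin gene Ahsg had 4692, 5549 and 5894 CPM in PFOA livers, against 11751 and 9967 CPM in vehicle livers (−1.01 ± 0.16, adjusted p = 0.00159), and transthyretin Ttr had 7009, 6159 and 5761 CPM in PFOA livers, against 11512 and 11483 CPM in vehicle livers (−0.87 ± 0.16, adjusted p = 0.00434). The groups did not overlap at either gene. Serpina1a, an α1-antitrypsin gene, fell by 0.99 ± 0.18. Albumin (Alb) had 55782, 56945 and 60763 CPM in PFOA livers, against 85899 and 66735 CPM in vehicle livers, without overlap, and did not pass (−0.40 ± 0.19, adjusted p = 0.255). Summed over the list, hepatocyte markers had 115400, 120900 and 120900 CPM in PFOA livers, against 187600 and 161100 CPM in vehicle livers, and the part of this difference in the falls given above and below was not tested. The count of markers that fell was 5 with only the 5 male libraries, without PFOA replicate 2 or without vehicle replicate 2, and 3 without vehicle replicate 1.

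Among 40 amino acid, urea and NAD genes 8 fell and 0 rose, with a median of −0.39 (3 and 4 fell without vehicle replicates 1 and 2). Ass1, argininosuccinate synthase of the urea cycle, had 500.4, 530.5 and 598 CPM in PFOA livers, against 1326 and 1369 CPM in vehicle livers (−1.31 ± 0.17, adjusted p = 0.000383). The vehicle livers agreed closely and lay well above the PFOA livers. Arginase Arg1 had 891, 1057 and 970 CPM in PFOA livers, against 1628 and 1534 CPM in vehicle livers (−0.70 ± 0.14, adjusted p = 0.00599; lost without vehicle replicate 1). Cbs, which starts transsulfuration, fell by 0.88 ± 0.14. The urea cycle genes Cps1 and Asl fell by 0.81 ± 0.21 and 0.81 ± 0.20, calls that each held in 10 of 16 alternatives. The same enzymes make up part of the periportal list, where 8 of 21 genes fell and 0 rose, with a median of −0.40 (4 fell with either vehicle library left out). Pigr, the immunoglobulin transporter, had 365, 480.4 and 574 CPM in PFOA livers, against 1291 and 1107 CPM in vehicle livers (−1.34 ± 0.19, adjusted p = 0.000702). On the pericentral side 5 of 24 genes fell and 0 rose, with a median of −0.41 (3 fell with either vehicle library left out). They were Wif1, Gulo, an enzyme of vitamin C synthesis (−1.39 ± 0.18, adjusted p = 0.000415), and Tcf7, Nkd1 and Ang, which held in 15, 8 and 15 of 16 alternatives. Of 28 glucose and glycogen genes 4 fell (Pklr, Khk and Slc37a4, which held in 15 of 16 alternatives each, and Tkfc, in 5) and 0 rose, with a median of −0.24. The count that fell was 2 and 1 without vehicle replicates 1 and 2, 7 without female vehicle replicate 3 or with no filter, and 8 with DESeq2.

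Complement and coagulation genes showed 6 of 41 lower and 0 higher, with a median of −0.35, and 26 of the 41 had every PFOA value below every vehicle value, beside 18.7% of all genes. The count that fell was 1 with either vehicle library left out, 11 with DESeq2 and 12 with no filter on low counts. It was 3 with the replicate block, with only the 5 male libraries and without female PFOA replicate 1, female PFOA replicate 2 or female vehicle replicate 1, and 2 without PFOA replicate 3. C9, the pore-forming complement component, had 145, 251 and 147 CPM in PFOA livers, against 626 and 873 CPM in vehicle livers (−2.05 ± 0.22, adjusted p = 0.000163), and held throughout. Of 24 growth hormone and IGF genes 8 fell and 1 rose (Igfbp2, held in 10 of 16 alternatives), with a median of −0.42, and the number that fell was 5 without PFOA replicates 1 or 3, 1 without vehicle replicate 1 and 3 without vehicle replicate 2. The number that rose was 0 with only the 5 male libraries and without PFOA replicate 1 or 3, vehicle replicate 2 or either female PFOA library, and 2 without PFOA replicate 2. Igf1 had 436, 509 and 387 CPM in PFOA livers, against 747 and 868 CPM in vehicle livers (−0.86 ± 0.22, adjusted p = 0.0283; lost with the replicate block and without PFOA replicate 1 or 3 or either vehicle library). The growth hormone feedback gene Socs2 fell by 1.65 ± 0.39 (adjusted p = 0.0389), a call that held in 9 of 16 alternatives, and the binding protein Igfbp4 by 0.85 ± 0.14 in all of them. Of 29 acute phase genes Orm2 and Lcn2 (held in 12 of 16 alternatives) rose and Il6ra fell. The count that rose was 1 with the replicate block and without PFOA replicate 1 or either vehicle library. The count that fell was 2 with only the 5 male libraries or without female vehicle replicate 2. It was 3 with DESeq2 and without PFOA replicate 2 or female vehicle replicate 3, and 6 with no filter. Of 45 interferon and antigen presentation genes Psmb8 fell (held in 13 of 16). This count was 0 without vehicle replicate 1, 2 with only the 5 male libraries, 3 with DESeq2 or without female vehicle replicate 3, 4 without female vehicle replicate 1 and 7 with no filter. Of 23 circadian genes Per1, Cry1 and Hlf fell (held in 15, 15 and 8 of 16), and 1 fell with either vehicle library left out.

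Genes known as male-biased in mouse liver gave 1 of 36 higher (Cyp4a12b) and 6 lower, with a median of −0.70. Those known as female-biased gave 7 of 40 higher and 5 lower (Ntrk2 and Hamp2, and Prlr, Cyp17a1 and Cyp2c68, which held in 13, 10 and 8 of 16 alternatives), with a median of 0.69 (0.67 with genes that had no vehicle count at their bound). The female-biased genes that rose included Cyp2b13 and Cyp4a10, and Cyp4a10 is counted on the ω-oxidation list too. Across all lists 92 tested genes stand on more than 1, so counts of different lists are not separate results. With DESeq2 11 male-biased genes fell, with no filter 10 and without PFOA replicate 2 13, while 3 female-biased genes fell without PFOA replicate 1, PFOA replicate 2, female PFOA replicate 1 or female PFOA replicate 2, and 2 without vehicle replicate 1. Hsd3b5, a strongly male-biased steroid dehydrogenase, had 10.5, 136 and 29.9 CPM in PFOA livers, against 265 and 247 CPM in vehicle livers. All PFOA values were lower, but they were spread over a wide range and the gene did not pass (−2.12 ± 0.98, adjusted p = 0.281), although without PFOA replicate 2 it did (−3.66, adjusted p = 0.0323). Cyp7a1, which starts the classic route from cholesterol to bile acids, had 15.8, 45.7 and 235 CPM in PFOA livers, against 465 and 446 CPM in vehicle livers, again lower in every PFOA liver and widely spread (−2.20 ± 0.96, adjusted p = 0.255; −3.44 with the replicate block, and −3.89 with adjusted p = 0.00218 without PFOA replicate 3). The anion transporter Slco1a1 had 105, 360.2 and 274 CPM in PFOA livers, against 410.4 and 548 CPM in vehicle livers (−0.96 ± 0.43, adjusted p = 0.255). Susd4, a male-biased complement inhibitor, fell by 1.57 ± 0.25, and Hamp2, a hepcidin gene counted as female-biased, had 42.3, 39.1 and 66.8 CPM in PFOA livers, against 168 and 196 CPM in vehicle livers (−1.88 ± 0.20, adjusted p = 8.32e-05). The bile acid and sterol list was mixed. Of its 26 tested genes 4 were higher, namely Abcc3, Abcc4, Acot8 and the phospholipid flippase Abcb4 (by 1.11 ± 0.13). Another 3 were lower, namely Baat (held in 15 of 16 alternatives), Fgfr4 and Cyp2c70, which makes muricholic acids (−1.22 ± 0.19). Of 30 lipoprotein genes 5 rose and 7 fell, with a median of −0.31. Those that rose were Angptl4, which held in all 16 alternatives, Mttp in 15, Ces1d in 13, Pltp in 12 and Ces1g in 7. The count that rose was 3 with the replicate block and 1 and 2 without vehicle replicates 1 and 2, and 1 to 3 fell with the replicate block, with only the 5 male libraries, with either female PFOA library left out, or without PFOA replicate 2 or 3 or either vehicle library.

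Cell cycle genes rose at 12 of 39 tested and fell at 1 (thymidine kinase Tk1, −0.72 ± 0.16, lost with either vehicle library left out), with a median of 1.22, and 3 rose without vehicle replicate 1. Top2a, topoisomerase of dividing cells, had 4.39, 4.42 and 3.62 CPM in PFOA livers, against 0.769 and 1.20 CPM in vehicle livers (2.07 ± 0.33, adjusted p = 0.00154). Ccnd1, cyclin D1, had 13.3, 21.1 and 12.8 CPM in PFOA livers, against 5.57 and 3.33 CPM in vehicle livers (1.82 ± 0.27, adjusted p = 0.00167). These levels were low in both groups and did not overlap. The proliferation marker Mki67 had 5.05, 6.39 and 4.87 CPM in PFOA livers, against 0.641 and 2.66 CPM in vehicle livers. Its vehicle livers differed widely and it did not pass (1.72 ± 0.50, adjusted p = 0.0638), although it did in 5 of 16 alternatives, among them DESeq2 (adjusted p = 0.00186) and the fit without vehicle replicate 2 (3.08, adjusted p = 0.00964; 1.03 without replicate 1). Of the DNA replication genes of the Mcm family on this list, 0 of 6 passed, beside 8.2% of all genes, and 6 genes are too few for that count to show anything about them.

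DNA damage and apoptosis genes rose at 8 of 22 and fell at 1 (Gadd45g, −1.27 ± 0.31, held in 11 of 16 alternatives), with a median of 0.43, and 3 and 4 rose without vehicle replicates 1 and 2. Gadd45a, a stress-induced growth arrest gene, had 14.7, 13.1 and 21.5 CPM in PFOA livers, against 3.78 and 4.20 CPM in vehicle livers (2.04 ± 0.26, adjusted p = 0.000296), and Ccng1, a p53 target, rose by 1.03 ± 0.15. The p53 target Phlda3 rose by 2.47 ± 0.37. The cell cycle inhibitor Cdkn1a had 22.3, 18.0 and 9.80 CPM in PFOA livers, against 1.99 and 1.40 CPM in vehicle livers, with no overlap, and did not pass (3.29 ± 0.84, adjusted p = 0.0609), although it did in 5 of 16 alternatives, among them DESeq2 (adjusted p = 0.00126). Of 32 genes of the unfolded protein and integrated stress responses 4 rose and 4 fell, with a median of −0.14, and leaving out a vehicle library left 2 that rose and 1 or 2 that fell. Asns, Trib3, Ddit3 and Sesn2 rose (the last pair held in 14 of 16 alternatives each, and 7 genes rose with DESeq2 or no filter), all known as genes of the integrated stress response. Asns, asparagine synthetase, had 11.9, 29.5 and 23.0 CPM in PFOA livers, against 1.54 and 0.666 CPM in vehicle livers (4.27 ± 0.45, adjusted p = 0.000216; 5.0 without vehicle replicate 1). The pseudokinase Trib3 had 45.8, 41.3 and 44.1 CPM in PFOA livers, against 9.99 and 7.73 CPM in vehicle livers (2.30 ± 0.25, adjusted p = 0.000153). Sdf2l1 (−1.20 ± 0.21), Dnajb11 (−0.72 ± 0.14, lost without vehicle replicate 2), Calr and Pdia6 (both held in 14 of 16 alternatives) fell, all known as chaperones or folding enzymes of the endoplasmic reticulum.

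Of 20 Kupffer cell and macrophage markers 0 passed (3 fell with no filter, and 1 with only the 5 male libraries, with the replicate block and without female vehicle replicate 2 or vehicle replicate 1). Their summed level was 303.2, 380.7 and 359.7 CPM in PFOA livers, against 357.1 and 540.8 CPM in vehicle livers. Endothelial markers rose at 1 of 19 (Lyve1, 1.75 ± 0.33, lost without vehicle replicate 1). Stellate and matrix markers rose at 2 of 18 (Col4a1, 1.02 ± 0.17, and Sparc, 0.79 ± 0.17, the second lost with either vehicle library left out, while 2 fell without PFOA replicate 1 and 3 with no filter). Cholangiocyte markers rose at 1 of 11 (Krt23, above). The summed endothelial level was 804.7, 632.9 and 682.2 CPM in PFOA livers, against 674.6 and 626.5 CPM in vehicle livers, and the groups overlapped. Cholangiocyte markers summed to 176.5, 159.7 and 178.5 CPM, against 108.4 and 111.7 CPM on vehicle, and Krt23 alone gave 53.2, 54.7 and 79.1 CPM of the PFOA sums. Lymphocyte and neutrophil markers rose at 1 of 13 tested (S100a8, 4.66 ± 0.66, 5.25 without vehicle replicate 2), and PFOA replicate 1 had the highest sum, 61.9 CPM, against 24.4 to 32.5 CPM in the other 4 male libraries. The neutrophil markers Retnlg, Mpo and Camp had no count in any male library, nor had the pancreatic and muscle genes Ins2, Prss2, Amy2a5, Ckm and Mb. Of 6 erythroid markers 0 passed. The shares that rose were 5.26% of endothelial, 11.1% of stellate, 9.09% of cholangiocyte and 7.69% of lymphocyte and neutrophil markers, beside 5.3% of all genes. Counts of 0 to 2 over lists this short show nothing about a cell type. The part of these marker levels in the other results was not tested.

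Whether the male response differed from that of hPPARa females was tested directly. The test called 15 of 14400 genes (0.104%), 6 with a higher (0.0417%) and 9 with a lower (0.0625%) log2 fold change in males. Cyp2c29 rose by 1.79 ± 0.18 in males, against 4.26 ± 0.18 in females, a difference of −2.47 ± 0.24 (adjusted p = 0.00086). On vehicle it had 536, 524 and 477 CPM in females, against 1699.6 and 2589 CPM in males. Cyp2c67, another Cyp2c gene, had, in males, 202, 236 and 218 CPM in PFOA livers, against 450.2 and 591 CPM in vehicle livers, and its changes were opposite in the sexes (−1.25 ± 0.15 against 0.92 ± 0.15, difference −2.18 ± 0.21, adjusted p = 0.00086). Both differences held in all 15 alternatives. Alas2, the erythroid heme synthesis enzyme, had, in males, 145, 222 and 193 CPM in PFOA livers, against 182 and 169.9 CPM in vehicle livers. Its log2 fold change was 0.084 ± 0.19 in males, against 2.44 ± 0.20 in females (difference −2.35 ± 0.27, adjusted p = 0.00483, and 0.0515 with the replicate block). Female levels of Alas2 were 131 and 91.7 CPM on PFOA, against 23.9, 19.0 and 18.6 CPM on vehicle, all below every male library. Cyp4a12a, a male-predominant ω-hydroxylase, had, in males, 618, 591 and 510.3 CPM in PFOA livers, against 366 and 335 CPM in vehicle livers. Its female levels were 354 and 246 CPM on PFOA, against 0.906, 0.0602 and 2.11 CPM on vehicle, and the female vehicle livers held hardly any (difference −7.52 ± 0.72, adjusted p = 0.0201, held in 7 of 15 alternatives). Cyp2b13 was the reverse, with 233 and 152 CPM in PFOA females, against 120.1, 279 and 118 CPM in vehicle females (difference 9.65 ± 1.12, adjusted p = 0.0313, held in 8 of 15 alternatives; the male part depends on 1 vehicle count). PFOA males, at 34.0, 34.6 and 40.1 CPM, stayed below every female library. Slc22a27, a female-biased transporter of the organic anion family, differed by 5.02 ± 0.70 (adjusted p = 0.0241, held in 9 of 15), and C8a, a complement subunit, by −1.35 ± 0.21 (adjusted p = 0.0306, held in 8 of 15).

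The count of 15 depended on single libraries: it was 4 without female PFOA replicate 1 or 2, 9 without female vehicle replicate 1, 7 without male vehicle replicate 2, 26 without female vehicle replicate 3 or male PFOA replicate 2, and 27 without male PFOA replicate 1. Further genes past the threshold were Arsa (−2.12 ± 0.29, held in 11 of 15), the thrombin receptor F2r (−1.40 ± 0.19, held in 12) and Evc (−1.79 ± 0.26, held in 10). Arsa had 9.66, 8.97 and 8.50 CPM in vehicle females, against 41.1 and 44.9 CPM in vehicle males. For the peroxisomal and mitochondrial oxidation lists the median log2 fold changes were 0.86 and 0.91 in males, against 0.90 and 0.95 in females, and the test called 0 of their 24 and 28 genes, beside 0.104% of all genes, a share too small for a count over so few genes to show anything about them. Of the 15 ω-oxidation genes it called 1, Cyp4a12a.

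**Figure D4:**
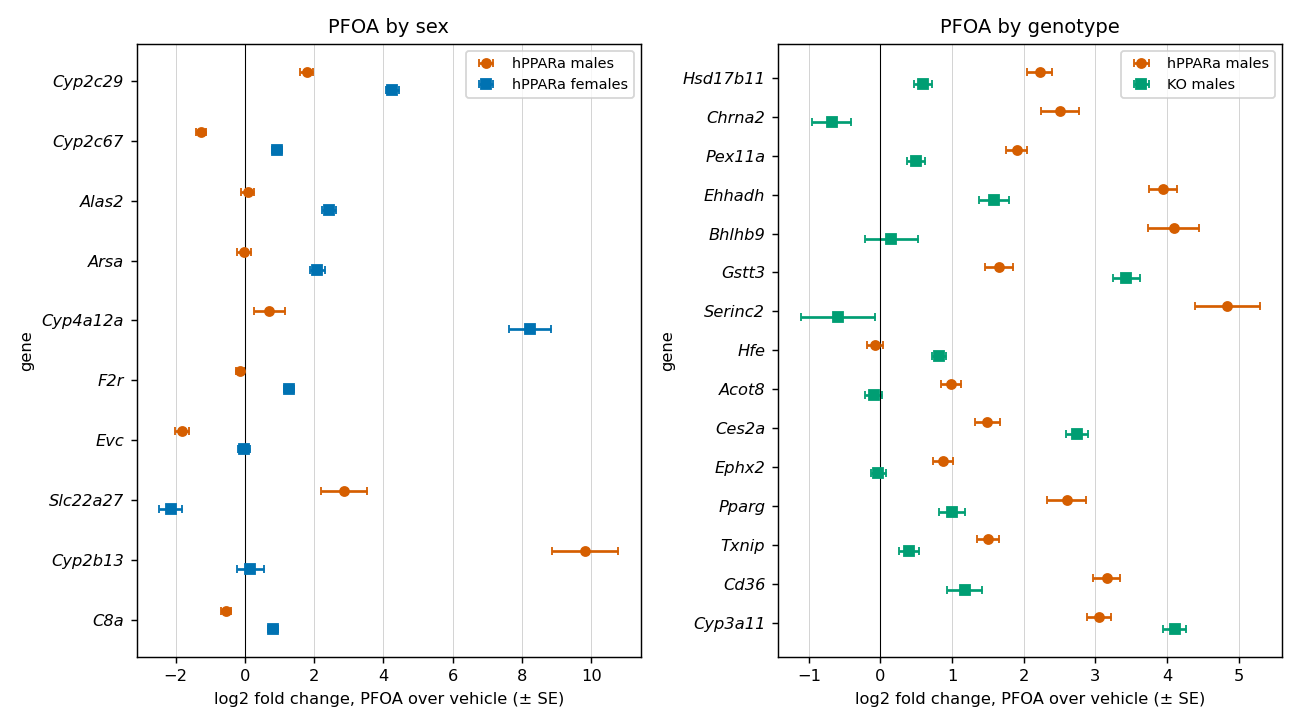
Log2 fold change of PFOA over vehicle with its SE for genes whose response differed between hPPARa males and hPPARa females (left) or between hPPARa males and KO males (right). Hsd17b11, Pex11a, Ehhadh and Cd36 rose by more in hPPARa males than in KO males, and Gstt3, Ces2a and Cyp3a11 rose by less.

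Whether the response differed from that of KO males was tested in a joint fit of all 20 libraries, in which each group had its own mean, and it called 24 of 15811 genes (0.152%), 18 with a higher (0.114%) and 6 with a lower (0.0379%) log2 fold change in hPPARa. Those higher in hPPARa included 1 of 24 peroxisomal β-oxidation genes (Ehhadh) and 2 of 20 lipid droplet genes. The test called 0 of the 15 ω-oxidation genes and 0 of the 29 mitochondrial oxidation genes. With 0.152% of all genes called, these counts show nothing about a list as a whole. Ehhadh in KO males had 666, 361 and 409 CPM on PFOA, against 136, 164 and 181 CPM on vehicle, a log2 fold change of 1.58 ± 0.21, so its rise was larger in hPPARa males by 2.36 ± 0.32 (adjusted p = 0.00223). The KO PFOA livers overlapped neither the KO vehicle livers nor the hPPARa PFOA livers. Hsd17b11 rose by 2.22 ± 0.17 in hPPARa males, against 0.59 ± 0.13 in KO males (difference 1.63 ± 0.20, adjusted p = 0.0016), and Pex11a by 1.90 ± 0.15, against 0.49 ± 0.13 (difference 1.41 ± 0.19, adjusted p = 0.00218). Acot8 differed by 1.08 ± 0.17 (adjusted p = 0.0071; over 0.05 with either hPPARa male vehicle library left out). Pparg differed by 1.60 ± 0.29, Cd36 by 1.98 ± 0.37 and the thioredoxin inhibitor Txnip by 1.10 ± 0.21, calls that held in 19, 10 and 15 of 25 alternatives, and the soluble epoxide hydrolase Ephx2 by 0.90 ± 0.16, in 20 of 25. Chrna2, a nicotinic receptor subunit, had, in hPPARa males, 14.9, 18.3 and 19.5 CPM in PFOA livers, against 3.39 and 2.80 CPM in vehicle livers, and a log2 fold change of −0.68 ± 0.27 in KO males (difference 3.18 ± 0.42, adjusted p = 0.00218, in all 25). Serinc2 and Bhlhb9 differed by 5.43 ± 0.78 and 3.94 ± 0.58, each in 24 of 25.

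Other genes rose by more in KO males. Gstt3, a glutathione transferase, rose by 1.66 ± 0.19 in hPPARa males, against 3.43 ± 0.19 in KO males (difference −1.78 ± 0.26, adjusted p = 0.00427, in all 25), Ces2a by 1.49 ± 0.18, against 2.75 ± 0.15 (difference −1.25 ± 0.21, in 24 of 25), and Cyp3a11 by 3.05 ± 0.16, against 4.11 ± 0.16 (difference −1.06 ± 0.21, adjusted p = 0.05 after rounding, in 8 of 25). Hfe, the regulator of iron uptake, had a log2 fold change of −0.079 ± 0.11 in hPPARa males, against 0.82 ± 0.10 in KO males (difference −0.90 ± 0.14, in 24 of 25). Cyp2b10 rose in both, by 10.52 ± 0.66 in hPPARa males and 9.32 ± 0.42 in KO males (difference 1.21 ± 0.65, adjusted p = 0.714). Cyp4a14 also rose in both, by 10.06 ± 0.55 and 7.38 ± 0.95 (difference 2.68 ± 1.21, adjusted p = 0.639). In KO males Cyp4a14 had 721, 70.4 and 365 CPM on PFOA, against 0.601, 1.76 and 4.48 CPM on vehicle. Those PFOA levels lay below the 7439 to 8905 CPM of hPPARa PFOA males. Neither difference passed, and with SEs this wide the test does not show that the rises were equal. KO males had 1638 calls among 15811 genes (10.4%), with 964 higher (6.1%) and 674 lower (4.26%). These calls came from the joint fit of 20 libraries, with 3 PFOA against 3 vehicle libraries. The 1181 calls of hPPARa males came from the fit of 10 libraries, with 3 against 2. The 2 counts and their overlap therefore do not show which response was broader. Of the 1181 genes called in hPPARa males 599 (50.7%) were also called in KO males, which is 38.2% of the 1568 KO calls among the same 14400 genes, and all 599 had the same sign. The median log2 fold change of the mitochondrial oxidation list was 0.91 in hPPARa males, against 0.38 in KO males, of the thioesterases 1.20, against 0.057, and of the CAR and PXR list 1.79, against 1.72, differences that were not tested as lists. The count of 24 was 9 and 10 without hPPARa male vehicle replicates 1 and 2, and 15 without KO male PFOA replicate 2, the library with the higher Xist.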

How the data were processed

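Bulk liver RNA was sequenced at a commercial provider, after a quality limit on the RNA, per the labels' protocols. The submitters' processing notes name the aligner STAR 2.5.3, the counter featureCounts 1.6.1, edgeR 3.36.0 under R 4.1.0, the trimmer cutadapt 1.15, FastQC 0.11.5 and build GRCm39. The authors deposited raw read counts per gene symbol for 53599 genes in 2 tables, one per genotype; neither annotation nor strandedness is stated in the labels, so reads of overlapping, antisense and near-identical genes (Cyp, Acot, Mup, Ugt, Gst and Ces families) may be shared.

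From these counts, edgeR 4.0.16 (R 4.3.3) fitted TMM-scaled libraries with the robust quasi-likelihood test, 1 mean per sex and treatment, over the 10 hPPARa libraries (6 residual degrees of freedom), after its default expression filter by group left 14400 genes. Adjusted p-values are Benjamini-Hochberg values over all tested genes, with a threshold of 0.05. A joint fit of both tables tested 15811 genes. A ± value is a standard error on the log2 scale. CPM values use TMM-scaled library totals and do not correct for gene length. Intervals and floors of counts cover counting error only. The edgeR tests of PFOA in hPPARa males, of PFOA by sex and of PFOA by genotype were also run on simulated data, and the other statistics were not.

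Named genes were the 15 highest and 15 lowest log2 fold changes with at least 1 CPM on average, up to 5 members of each of 42 lists and 10 per interaction by adjusted p, a fixed set (among them Ppara, Ehhadh and Cyp7a1), and others chosen after their values were seen. The lists and members were chosen with earlier results of these data known. Alternatives were RLE size factors, DESeq2 1.42.0, no filter on low counts, the male libraries alone, a replicate block, each library left out and, chosen after seeing the data, total counts with no TMM factor. Promoter sequences are those of RefSeq, build GRCm38.p6.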

Additional observations from a re-analysis of the deposited data

Results flagged for a closer look

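The response to PFOA differed between hPPARa males and hPPARa females at 15 genes by the test of the difference itself. The log2 fold change was lower in males, as a difference of male minus female, at Cyp2c29 by −2.47 ± 0.24, Cyp2c67 by −2.18 ± 0.21, Alas2 by −2.35 ± 0.27, Arsa by −2.12 ± 0.29, Cyp4a12a by −7.52 ± 0.72, F2r by −1.40 ± 0.19, Evc by −1.79 ± 0.26 and C8a by −1.35 ± 0.21. It was higher in males at Slc22a27 by 5.02 ± 0.70 and Cyp2b13 by 9.65 ± 1.12.

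The response differed between hPPARa males and KO males at 24 genes by the same kind of test. The log2 fold change was higher in hPPARa, as a difference of hPPARa minus KO, at Hsd17b11 by 1.63 ± 0.20, Chrna2 by 3.18 ± 0.42, Pex11a by 1.41 ± 0.19, Ehhadh by 2.36 ± 0.32, Bhlhb9 by 3.94 ± 0.58, Serinc2 by 5.43 ± 0.78, Acot8 by 1.08 ± 0.17, Ephx2 by 0.90 ± 0.16, Pparg by 1.60 ± 0.29, Txnip by 1.10 ± 0.21 and Cd36 by 1.98 ± 0.37. It was lower at Gstt3 by −1.78 ± 0.26, Hfe by −0.90 ± 0.14, Ces2a by −1.25 ± 0.21 and Cyp3a11 by −1.06 ± 0.21.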

How the results depend on the processing

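The 763 higher and 418 lower genes of hPPARa males were 746 and 424 with RLE size factors, 853 and 530 with DESeq2, 569 and 310 with the male libraries alone, 841 and 327 on total counts with no TMM factor, and 973 and 653 with no filter on low counts. Leaving out 1 library gave 318 to 808 higher and 146 to 512 lower genes, with the lowest counts when a vehicle male was left out. The 15 genes whose response differed between the sexes became 138 with DESeq2 and 323 with no filter, and 4 to 27 with 1 library left out. The 24 that differed between genotypes became 125 with DESeq2 and 194 with no filter, and 9 to 35 with 1 library left out. The labels do not say that replicate numbers pair the samples, and the deviations of same-numbered PFOA and vehicle males correlated at 0.085 and −0.009. With the replicate block there were 645 higher and 382 lower genes, 18 differing between sexes and 32 between genotypes. Among named genes below the threshold, the male log2 fold change turned sign when 1 library was left out for Arsa (−0.2202 to 0.1688, and 0.0206 on total counts), Alas2 (−0.0587 to 0.2373), Hmox1 (−0.2304 to 0.5144), Nr1i3 (−0.5157 to 0.0547) and F2r (−0.2586 to 0.0264). For the other changes the cause was not tested, except that a vehicle male left out leaves 1 vehicle library, assumed to vary like the other groups. With 2 vehicle males and 6 residual degrees of freedom, the number of libraries limits precision, and levels near 1 CPM rest on about 15 counts per library.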

Other observations

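Thyroid hormone transport and action is a system that the study's design does not name. In PFOA males 3 of its 12 tested genes rose and 1 fell, beside 5.3% and 2.9% of all genes, and 1 rose without vehicle replicate 1. The count that fell was 2 with DESeq2, with no filter and without PFOA replicate 2. Serpina7, the thyroxine-binding globulin of plasma, had a log2 fold change of 3.84 ± 0.58 (over the threshold with either vehicle library left out), Me1 rose by 1.52 ± 0.22 and the glucuronosyltransferase Ugt1a1 by 1.35 ± 0.24 (over the threshold without vehicle replicate 1), while Ttr, the other carrier of thyroxine, fell by 0.87 ± 0.16. The median of the list was 0.021, beside 0.0037 over all genes tested. Serpina7 had 64.3, 45.9 and 33.3 CPM in PFOA livers, against 3.39 and 3.26 CPM in vehicle livers. The groups did not overlap.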
